A study of Populus tremula x Populus alba with 14 samples.

Results

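The primary wall cellulose synthases described here are 10 genes of the count table, chosen by identifier, although earlier results of these data were known by then. They are 2 CesA1-type, 4 CesA3-type and 4 CesA6-type genes, out of 41335 genes in all, and their types came with the list, because the deposited tables give identifiers without names. All 10 passed the filter on low counts that left 27673 genes for testing.

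Transcripts were measured in the bark of wild-type trees of the hybrid poplar clone INRA 717-1B4 (Populus tremula x Populus alba), grown in a greenhouse and outdoors in the growing season. The libraries formed 4 groups: outer bark of old stems (n = 4), inner bark of old stems (n = 4), outer bark of young stems (n = 3) and inner bark of young stems (n = 3). Old stems were 6 to 8 mm and young stems 4 to 5.5 mm in diameter. The outer layer is described as phellem (cork) and phellogen (the meristem that produces cork), the inner layer as secondary phloem with the vascular meristem. All trees were of 1 clone, and the libraries were bulk tissue. In bulk tissue, fewer cells of a type and less RNA per cell cannot be told apart.

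Cellulose is made at the plasma membrane by complexes of CesA proteins, which add glucose from UDP-glucose to growing glucan chains. In Arabidopsis, the complexes of expanding and dividing cells, which make the primary wall, contain CesA1, CesA3 and a CesA6-type subunit. CesA1 and CesA3 are required there, and the CesA6-type position can be filled by several related proteins that replace each other in part. A separate set of CesA proteins makes the cellulose of secondary walls in wood and fibres. Bark holds meristem cells and expanding cells, which build primary walls, as well as fibres, which add secondary walls.

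Library totals were between 11944485 and 15980636 counts, and the lowest count of a member in a library was 521, so counting error was small beside the wider spreads between stems. It was not small beside the narrowest ones, such as that of Potri.001G266400 in young outer bark (119.5 ± 1.25 CPM, SD, counts of 1633 to 2033). The libraries carry a number within each age, called the stem here although the labels do not say what it marks, and libraries of both layers with the same number deviated together from their group means (correlations across genes of 0.60 to 0.82). Whether libraries of a group came from different trees is not stated in the labels, and the p-values therefore describe the spread between these samples only. Results on bark layer are given from group means and also with the stem number as a block. Stem 1 lay at an end of its group at both ages in several members, and the age results that it moved are also given without it. The defining markers of cork and phloem could not be looked up, because no identifier is paired with a name, so the tissue labels were not checked against them. Levels are given as CPM, that is, counts scaled to the effective size of each library. They are not compared between genes, because no gene lengths were used. Reads of closely related members may have been split between them by the authors' counting, and the protocol was unstranded, so reads of an overlapping antisense gene would be included.

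Across the 14 libraries, 8 of the 10 members varied less than most tested genes. The standard deviation of their log2 CPM lay at or below the 39.6 percentile of all tested genes. Their mean CPM lay at the 92.5 to 99.3 percentile, and no background of genes at a like level was used. The CesA1-type gene Potri.018G029400 was the steadiest, at the 5.41 percentile, with a 1.59-fold range of CPM between its lowest and highest library. The remaining 2 members were both CesA6-type. Potri.005G027600 ranged 12.6-fold (80.6 percentile) and Potri.005G087500 ranged 13.5-fold (83.2 percentile), and they varied in opposite directions with stem age.

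**Figure D1:**
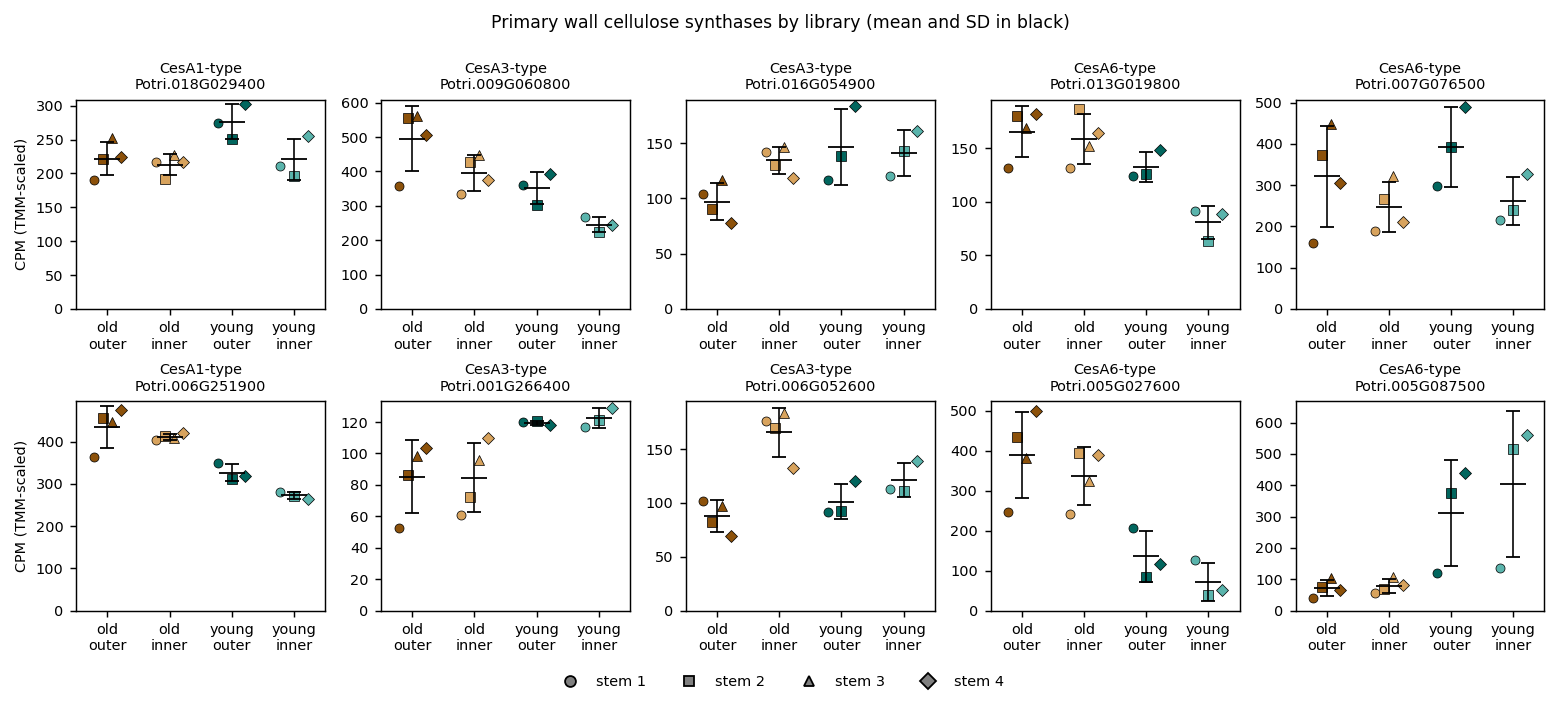
CPM (vertical axes, from 0) of the 10 members in each library, by group, with stems marked by symbol and the group mean and SD in black. Potri.005G027600 lies between 241 and 499.5 CPM in old and between 39.6 and 206 CPM in young libraries, and Potri.005G087500 lies between 41.4 and 108 CPM in old and between 119.8 and 559 CPM in young libraries.

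The question of stem age was asked within each bark layer. In inner bark, 5 of the 10 members passed the test of old against young stems (edgeR's quasi-likelihood test on counts scaled by TMM factors, Benjamini-Hochberg adjusted p below 0.05 over all genes tested), 4 of them higher in old and 1 higher in young stems. The background was 29.1% of all tested genes, 14.2% with more in old stems and 14.9% with more in young ones. In outer bark 3 of 10 passed, 1 higher in old and 2 higher in young stems, where 22% of all tested genes passed, 8.5% with more in old stems and 13.5% with more in young ones. The outer count was 0 without young outer replicate 2 and without young outer replicate 4, 1 without old outer replicate 2 or 4, and 5 without stem 1 of both ages. With RLE scaling the outer calls were 2 higher and 1 lower in old stems. The inner count was 3 when the inner libraries were fitted alone. Over all genes the outer calls ran from 2715 to 10463 with replicates left out, against 6093 in the main fit. The inner calls over all genes were 5505 in the inner libraries alone, against 8048. The CPM values of the ages did not overlap for 6 members in inner bark, against 37.7% of all genes, with 4 members above in old stems (19.2% of all genes) and 2 higher in young stems (18.5%). In outer bark they did not overlap for 4 members, against 35.3% of all genes, with 2 higher in old (15.4%) and 2 higher in young stems (20%). The median member log2 fold change was 0.20 in inner and -0.25 in outer bark, against 0.03 and -0.01 over all genes tested. The age contrasts of the layers come from the same stems, so the layers are not independent of each other.

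The CesA6-type gene Potri.005G027600 was higher in old stems in both layers. In outer bark it was at 247, 435, 381 and 499.5 CPM in old stems 1 to 4 and at 206, 84.8 and 115 CPM in young stems 1, 2 and 4. In inner bark it was at 241, 394, 324 and 389 CPM in old stems 1 to 4 and at 127, 39.6 and 51.1 CPM in young stems 1, 2 and 4. Every old library lay above every young one, and stem 1 was the lowest of the old and the highest of the young stems. The old level was 4.65-fold the young level in inner bark (log2 fold change 2.22 ± 0.45 SE, edgeR adjusted p = 0.00466). It was 2.88-fold in outer bark (log2 fold change 1.53 ± 0.44 SE, edgeR adjusted p = 0.0277). Without stem 1 of both ages the log2 fold changes were 3.07 in inner and 2.19 in outer bark. The outer call was lost in 4 of 23 alternatives, those without old outer replicate 2 or 4 or without young outer replicate 2 or 4, with an adjusted p of up to 0.107.

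Potri.005G087500, also of the CesA6 type, showed the reverse. In outer bark it was at 41.4, 76.6, 105 and 67.0 CPM in old stems 1 to 4 and at 119.8, 375 and 438 CPM in young stems 1, 2 and 4. In inner bark it was at 56.8, 70.3, 108 and 80.9 CPM in old stems 1 to 4 and at 135, 517 and 559 CPM in young stems 1, 2 and 4. All young libraries exceeded all old ones, and young stem 1 lay closer to the old stems than young stems 2 and 4 did. The young level was 5.11-fold the old level in inner bark (log2 fold change -2.35 ± 0.52 SE, edgeR adjusted p = 0.007). It was 4.29-fold in outer bark (log2 fold change -2.10 ± 0.52 SE, edgeR adjusted p = 0.0155), a call lost without young outer replicate 2 or 4 (adjusted p up to 0.068). Without stem 1 of both ages the log2 fold changes of Potri.005G087500 were -2.59 in inner and -2.24 in outer bark.

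Of the other CesA6-type members, 1 was called by age, in inner bark. Potri.013G019800 was at 131, 187, 152 and 164 CPM in old inner bark of stems 1 to 4 and at 91.5, 63.2 and 88.1 CPM in young inner bark of stems 1, 2 and 4. The old inner libraries all lay above the young ones, with a 1.96-fold difference (log2 fold change 0.97 ± 0.19 SE, edgeR adjusted p = 0.00378) that was called in all 23 alternatives. In outer bark the same gene was at 166 ± 23.4 CPM in old and 133 ± 13.9 CPM in young stems (SD, n = 4 and 3), with overlapping libraries (edgeR adjusted p = 0.231). Potri.007G076500 was not called at either layer (edgeR adjusted p = 0.553 in outer and 0.862 in inner bark). Its libraries overlapped widely, from 160.1 to 449 CPM in old outer and from 297 to 491 CPM in young outer bark.

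**Figure D2:**
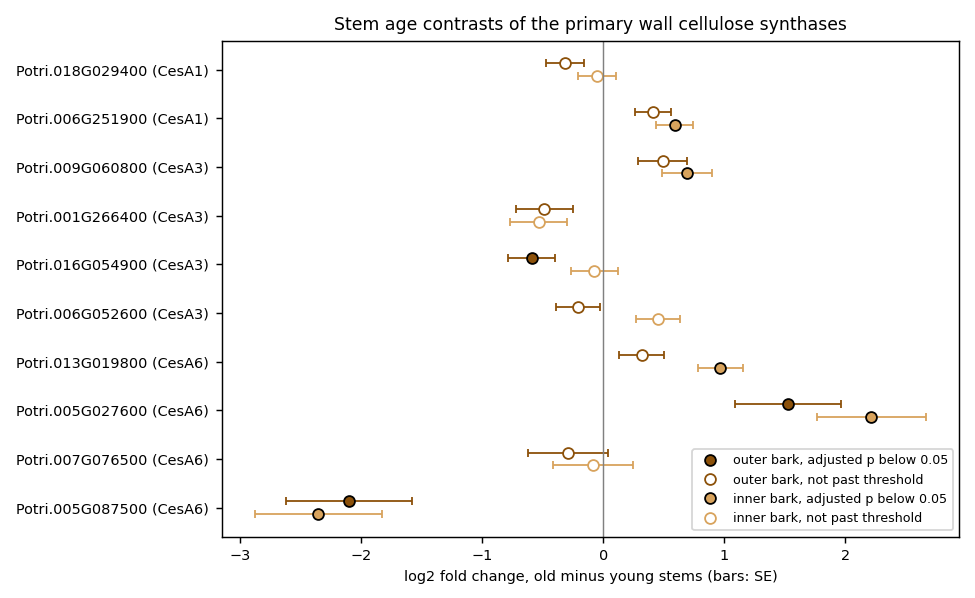
Log2 fold change of old minus young stems for each member in outer and inner bark (horizontal axis, bars are SE), filled where the adjusted p was below 0.05. The values run from -2.35 for Potri.005G087500 to 2.22 for Potri.005G027600, both in inner bark and both of the CesA6 type.

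Among the CesA1-type genes, encoding a subunit that is required in Arabidopsis, the members of the pair differed in their relation to age. Potri.006G251900 was at 403, 414, 409 and 419.9 CPM in old inner bark of stems 1 to 4 and at 281, 272 and 265 CPM in young inner bark of stems 1, 2 and 4. The spread within each of these groups was small and they did not overlap. The difference was 1.51-fold (log2 fold change 0.59 ± 0.15 SE, edgeR adjusted p = 0.0133). The call was lost in a fit of the inner libraries alone (adjusted p = 0.0591). In outer bark Potri.006G251900 was at 363, 456, 446 and 475 CPM in old and at 350.2, 311 and 319.8 CPM in young stems. These groups did not overlap either, but the difference missed the threshold (log2 fold change 0.41 ± 0.15 SE, edgeR adjusted p = 0.0679). It passed in 7 of 23 alternatives, among them RLE scaling, DESeq2 and the fit without stem 1 (adjusted p = 0.00703). Potri.018G029400 was at 213 ± 15.1 CPM in old and 221 ± 30.2 CPM in young inner bark (n = 4 and 3, SD; edgeR adjusted p = 0.817). In outer bark it was at 222 ± 25.0 CPM in old and 276 ± 25.9 CPM in young stems (SD, n = 4 and 3; edgeR adjusted p = 0.161), with overlapping libraries.

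The CesA3-type genes encode the other subunit that Arabidopsis requires, and their 4 members followed no common direction with age. Potri.009G060800 was at 333, 428, 448 and 375 CPM in old inner bark of stems 1 to 4 and at 267, 224 and 244 CPM in young inner bark of stems 1, 2 and 4. The old level was 1.62-fold the young level, with no overlap (log2 fold change 0.69 ± 0.20 SE, edgeR adjusted p = 0.0245). That call was lost in 4 of 23 alternatives: without old inner replicate 3, without young inner replicate 2 or 4, and in the inner libraries alone (adjusted p up to 0.0662). In outer bark Potri.009G060800 was at 358, 555, 562 and 507 CPM in old and at 361, 302 and 394 CPM in young stems, with only old stem 1 inside the young range (edgeR adjusted p = 0.0979). Without stem 1 of both ages Potri.009G060800 passed the outer test (edgeR adjusted p = 0.0126), and it also passed in DESeq2.

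Potri.001G266400, the CesA3-type gene paired with it, had lower levels in old stems without passing the test. In old stems it spanned 52.5 to 104 CPM in the outer and 60.9 to 109.9 CPM in the inner layer, against 118 to 121 CPM in young outer and 117 to 129 CPM in young inner bark. The age groups did not overlap in either layer, but the fits gave edgeR adjusted p = 0.155 for outer and 0.108 for inner bark. The inner difference of Potri.001G266400 passed in 2 of 23 alternatives, DESeq2 (adjusted p = 0.04) and the fit without old outer replicate 1 (adjusted p = 0.0488). The young libraries of Potri.001G266400 were close together, while the old libraries were spread out, with stem 1 the lowest in both layers.

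The other CesA3-type members were Potri.016G054900 and Potri.006G052600. Potri.016G054900 was at 104, 90.1, 117 and 77.4 CPM in old outer bark of stems 1 to 4 and at 117, 138 and 184 CPM in young outer bark of stems 1, 2 and 4. Old stem 3 and young stem 1 were level. The old group was lower (log2 fold change -0.59 ± 0.19 SE, edgeR adjusted p = 0.0447), but the call was lost in 15 of 23 alternatives (adjusted p up to 0.216). Potri.006G052600 was not called by age in either layer (edgeR adjusted p = 0.433 in outer and 0.0819 in inner bark).

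The comparison of bark layers asks which members differ between the cork side and the phloem side of a stem. In old stems, group means called 1 of 10 members, higher in inner bark, where 10.4% of all tested genes were called, 5.31% with more in the outer layer and 5.07% with more in the inner one. With the stem as a block 3 of 10 were called, 1 with more in the outer layer and 2 with more in the inner one, where 39.2% of all genes were called (18.8% and 20.4%). In young stems group means called 0 of 10 members in edgeR, with a background of 0.387% (0.325% with more in the outer layer and 0.0614% in the inner one). There, 2 members had an unadjusted p below 0.05, and DESeq2 called 1. With the stem as a block 8 of 10 were called in young stems, 6 with more in the outer layer and 2 with more in the inner one, against 33.3% of all genes (18.6% and 14.7%). The blocked young count was 3 without young stem 2 and 3 without young stem 4. The blocked old count was 5 without young stem 1 or without stem 1 of both ages, and 2 without old stem 4. Fits with a stem left out have fewer libraries for every gene, and their shares over all genes are not given here. These changes in count therefore cannot be read as particular to the members. The layers did not overlap for 2 members in old stems, both higher in the inner layer, against 13.8% of all genes (7.28% in that direction and 6.56% in the other). In young stems they did not overlap for 3 members, all higher in the outer layer, against 25.9% of all genes (13.7% in that direction and 12.2% in the other). Averaged over the ages with the block, a comparison added after seeing the data, 9 of 10 members were called, all but Potri.001G266400, where 46.6% of all genes were called (23.4% higher in the outer layer and 23.1% in the inner one). The median member log2 fold change of outer over inner bark was 0.06 in old and 0.29 in young stems, against -0.01 and 0.01 over all genes tested.

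The CesA3-type gene Potri.006G052600 was the member called in old stems by group means. In old outer bark it was at 102, 82.1, 97.1 and 69.7 CPM, and in the inner bark of the same stems 1 to 4 at 176, 169, 184 and 132 CPM. In young outer bark it was at 91.7, 92.0 and 120.1 CPM, and in the inner bark of the same stems 1, 2 and 4 at 113, 111 and 139 CPM. Inner bark was higher in 7 of 7 stems, a pattern that 15.6% of all tested genes had. In old stems the inner level was 1.89-fold the outer level (log2 fold change -0.92 ± 0.17 SE, edgeR adjusted p = 0.0062), called in every alternative run. In young stems the log2 fold change was -0.26 ± 0.07 SE with the block (edgeR adjusted p = 0.0189). That call was lost when any 1 of the young stems alone was left out (adjusted p up to 0.0832), and it held without stem 1 of both ages.

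Its CesA3-type partner Potri.016G054900 was also higher in old inner bark. The inner libraries of old stems 1 to 4 were at 142, 130.4, 146 and 118 CPM, all above the old outer libraries given before. The difference had an edgeR adjusted p of 0.131 with group means and 0.000609 with the block (log2 fold change -0.48 ± 0.07 SE). The blocked call held in 11 of 11 alternatives of the blocked fit. In young stems its inner libraries were at 119.9, 143 and 161 CPM and overlapped the outer ones (edgeR adjusted p = 0.957, and 0.758 with the block).

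Potri.009G060800, of the CesA3 type, was on the other side. Its outer library exceeded the inner one in 7 of 7 stems, by 1.07-fold to 1.35-fold in old and by 1.35-fold to 1.61-fold in young stems, and 16.7% of all tested genes were higher in outer bark in every stem. With the block it was called at both ages (edgeR adjusted p = 0.0118 in old and 0.00291 in young stems). Group means gave adjusted p values of 0.356 and 0.311. The old call was lost without old stem 4 (adjusted p = 0.0518). Potri.001G266400 was higher in outer bark in 3 of 7 stems and was called in neither fit at either age (edgeR adjusted p between 0.809 and 0.992).

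**Figure D3:**
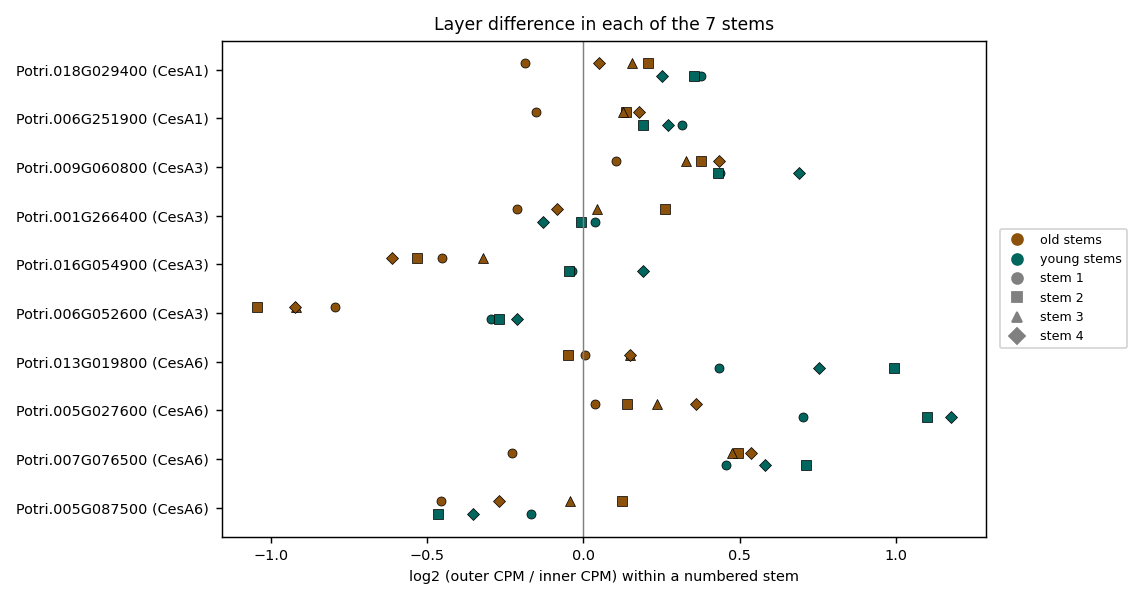
Log2 ratio of outer to inner CPM (horizontal axis) of each member in each of the 7 stems, old stems in brown and young stems in green, symbols giving the stem number. Potri.006G052600 lies to the left of 0 in 7 of 7 stems, and Potri.009G060800 and Potri.005G027600 lie to the right of 0 in 7 of 7 stems.

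Of the CesA6-type members, 3 were higher in young outer than in young inner bark. Potri.005G027600, at the CPM given above, was higher in outer bark in 7 of 7 stems, by 1.03-fold to 1.28-fold in old and by 1.63-fold to 2.26-fold in young stems. With the block its young log2 fold change was 0.99 ± 0.11 SE (edgeR adjusted p = 0.000428), while group means gave an adjusted p of 0.429. In old stems Potri.005G027600 was not called with the block (edgeR adjusted p = 0.119), and it passed without young stem 1 and without stem 1 of both ages (adjusted p down to 0.0227). Potri.013G019800 was at 124, 126 and 149 CPM in young outer bark of stems 1, 2 and 4, each above the young inner libraries listed before. Its blocked log2 fold change was 0.73 ± 0.10 SE (edgeR adjusted p = 0.00114, against 0.127 with group means). In old stems Potri.013G019800 spanned 132 to 182 CPM in outer and 131 to 187 CPM in inner bark, and no difference was called (edgeR adjusted p = 0.922, and 0.608 with the block). The blocked young calls of both genes held in 11 of 11 alternatives of the blocked fit.

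Potri.007G076500, the third of these CesA6-type genes, was higher in outer bark in 6 of 7 stems, the exception being old stem 1. Its blocked young log2 fold change was 0.58 ± 0.14 SE (edgeR adjusted p = 0.0127, and 0.544 with group means), a call lost without young stem 2 or 4 (adjusted p up to 0.0981). In old stems it missed the threshold with the block (edgeR adjusted p = 0.0664) and passed it in 4 of 11 alternatives of the blocked fit: DESeq2, without old stem 1, without young stem 1 and without stem 1 of both ages (adjusted p down to 0.000582). Potri.005G087500 was higher in inner bark in 6 of 7 stems. The young difference of Potri.005G087500 passed with the block (log2 fold change -0.33 ± 0.11 SE; edgeR adjusted p was 0.0446, and 0.864 with group means). That call was lost in 4 of 11 alternatives of the blocked fit, those without old stem 3 or 4 or young stem 2 or 4 (adjusted p up to 0.191).

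Both CesA1-type genes were higher in outer bark in 6 of 7 stems, with old stem 1 as the exception in each. Potri.018G029400 was at 274, 252 and 303 CPM in young outer and at 211, 197 and 255 CPM in young inner bark of stems 1, 2 and 4. Its blocked log2 fold change was 0.33 ± 0.09 SE (edgeR adjusted p = 0.0189, and 0.454 with group means). The call was lost when any 1 of the young stems alone was left out, and it held without stem 1 of both ages. For Potri.006G251900 the blocked young log2 fold change was 0.26 ± 0.08 SE (edgeR adjusted p = 0.0428, and 0.558 with group means), lost in 8 of 11 alternatives, among them RLE scaling. Neither was called in old stems, where the edgeR adjusted p values were 0.911 and 0.863 with group means and 0.596 and 0.475 with the block.

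Whether the layer difference itself changed with age was tested by the interaction, old minus young. Group means called 0 of 10 members and 0% of all genes in edgeR, and DESeq2 called 0 members and 37 of all genes. At an unadjusted p below 0.05 there were 2 members, and the share of all genes at that threshold is not given here. With the stem as a block 4 of 10 members passed, against 10.3% of all genes, and in all 4 the outer over inner ratio was lower in old stems (6.99% of all genes in that direction and 3.27% in the other). These were the CesA3-type genes Potri.006G052600 (log2 difference -0.66 ± 0.09 SE, edgeR adjusted p = 0.00442) and Potri.016G054900 (-0.52 ± 0.11 SE, edgeR adjusted p = 0.0195). The others were the CesA6-type genes Potri.005G027600 (-0.79 ± 0.14 SE, edgeR adjusted p = 0.0105) and Potri.013G019800 (-0.66 ± 0.14 SE, edgeR adjusted p = 0.0188). For Potri.016G054900 the outer over inner ratio was 0.654 to 0.801 in old and 0.967 to 1.14 in young stems. For Potri.013G019800 it was 0.967 to 1.11 in old and 1.35 to 1.99 in young stems. Potri.016G054900 thus had more in the inner layer in all old stems but in 2 of the 3 young ones, and its young difference was not called. Without young stem 2 or without young stem 4, Potri.006G052600 was the 1 member still called. Without old stem 2 the number called was 2. The shares over all genes in these fits are not given here, so the lower counts cannot be read as particular to the members.

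The order of the 4 groups therefore differed between members. Potri.006G251900, Potri.009G060800, Potri.013G019800 and Potri.005G027600 had the same order of means, old outer, old inner, young outer and young inner. For Potri.006G251900 the old inner and young outer ranges and the young outer and young inner ranges were separate. For Potri.005G027600 the ranges were separate between old inner and young outer bark, and for Potri.009G060800 and Potri.013G019800 between the young layers. Neighbours in the order overlapped otherwise in these genes. Potri.001G266400 had the young groups above the old ones with a gap between them, and Potri.016G054900 had the lowest mean in old outer bark, separate from old inner bark, its neighbour in the order, but not from young outer bark. In Potri.005G087500 the order was young inner, young outer, old inner and old outer, with a gap between young outer and old inner bark. All neighbours overlapped in Potri.018G029400, Potri.006G052600 and Potri.007G076500.

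The members listed side by side within a type were taken as 5 pairs, and the share of each pair's counts that fell to its first gene was followed through the libraries. Such a share needs no scaling between libraries, and since gene lengths were not used, only its changes are described. Stem age separated the share in all 5 pairs: averaged over the layers of a stem, the log2 ratios of the 4 old stems did not overlap those of the 3 young stems. Each had an exact two-sided permutation p of 0.0286, the smallest that 4 against 3 stems allow, among 10 unadjusted tests of these ratios. No background of ratios of other gene pairs was computed. The CPM of single genes within a layer, a different measure, separated the ages for 35.3% of genes in outer and 37.7% in inner bark.

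In the CesA1-type pair Potri.018G029400 took 33.8% ± 1.85 of the outer and 34.1% ± 1.79 of the inner counts in old stems (SD, n = 4), with Potri.006G251900 taking the rest. In young stems it took 45.8% ± 2.55 of the outer and 44.6% ± 3.83 of the inner counts (SD, n = 3). The ages were separate, and no layer difference was detected, with the log2 ratio higher in outer bark in 4 of 7 stems (exact two-sided sign-flip permutation p = 0.563).

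In the first CesA3-type pair Potri.009G060800 took 85.5% ± 1.84 of the outer and 82.5% ± 3.65 of the inner counts in old stems (SD, n = 4), against Potri.001G266400. In young stems the shares were 74.5% ± 2.78 and 66.6% ± 2.59 (SD, n = 3). In the second CesA3-type pair, Potri.016G054900 took 52.5% ± 1.68 of the outer and 44.9% ± 1.63 of the inner counts in old stems (SD, n = 4), against Potri.006G052600. In young stems these shares were 58.9% ± 2.44 and 53.9% ± 2.36 (SD, n = 3). In both pairs, the first gene's share was higher in outer than in inner bark in 7 of 7 stems. Each had an exact two-sided sign-flip permutation p of 0.0156, the smallest that 7 stems allow. With age the pairs went opposite ways, the log2 ratio being higher in old stems by 1.13 in the first pair and lower by a log2 difference of -0.44 in the second.

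In the CesA6-type pairs the shifts with age were larger. With Potri.005G027600 as partner, Potri.013G019800 took 26.7% to 34.8% of the outer counts of old stems and 37.5% to 59.8% of those of young stems. Of the inner counts it took 29.6% to 35.3% in old and 41.9% to 63.3% in young stems. With Potri.005G087500 as partner, Potri.007G076500 took 79.4% to 83.0% of the outer counts of old stems and 51.2% to 71.3% of those of young stems. Of the inner counts it took 72.2% to 79.1% in old and 31.7% to 61.7% in young stems. The old stems were close together in both pairs, while young stem 1 lay nearest to the old stems. The old minus young difference of the log2 ratio was -1.34 for Potri.013G019800 over Potri.005G027600 and 1.83 for Potri.007G076500 over Potri.005G087500. Without young stem 1 these were -1.74 and 2.30. The share of Potri.013G019800 was lower in outer bark in 7 of 7 stems and that of Potri.007G076500 higher in outer bark in 7 of 7 stems (exact two-sided sign-flip permutation p = 0.0156 each).

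**Figure D4:**
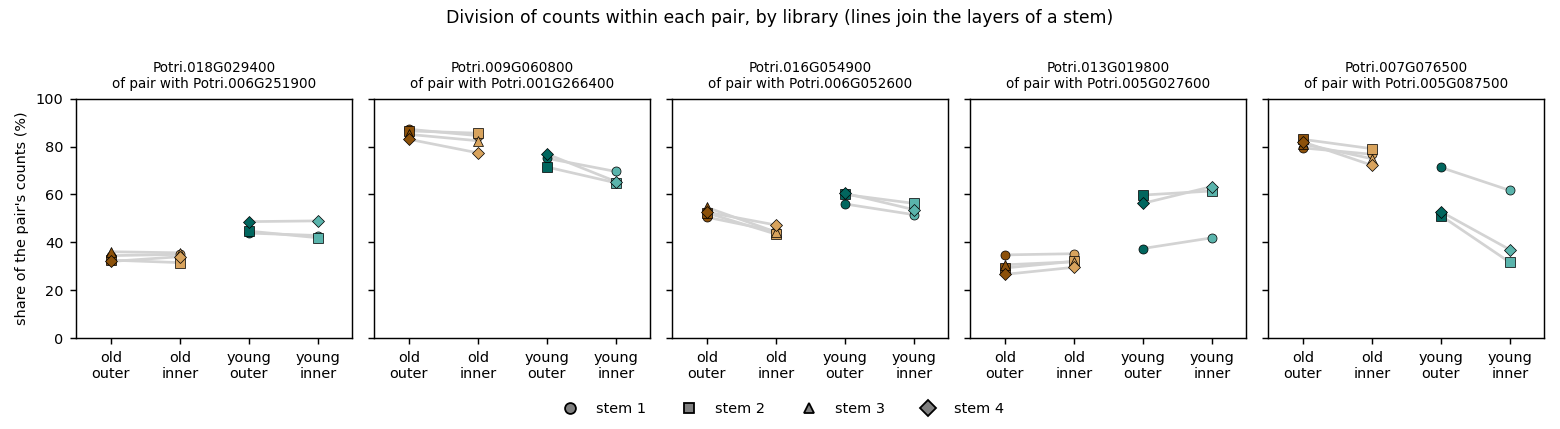
Share of each pair's counts taken by the gene named first (vertical axes, percent, 0 to 100) in every library by group, with grey lines joining the layers of a stem. In the pair of Potri.007G076500 and Potri.005G087500 the old libraries lie between 72.2% and 83.0% and the young ones between 31.7% and 71.3%.

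Of the cellulose synthases outside the list, only 5 identifiers were followed, written down by hand as those of the secondary wall. Further genes of the family could not be looked up without names. Neither the files nor any annotation used here gives the 5 that name, so this assignment was not checked. The summed level of the 5 was 10.3 to 383 CPM in old outer (median 136) and 20.2 to 1433 CPM in old inner bark (median 638). It was 854 to 1227 CPM in young outer (median 1020.1) and 2457 to 3594 CPM in young inner bark (median 3411). Old stem 1 had the lowest sum in both layers. With the block 5 of 5 were higher in inner bark at each age (edgeR adjusted p at most 0.00454 in old and 0.00793 in young stems). Of all tested genes, 20.4% in old and 14.7% in young stems were called in that direction with the block. Group means called 0 of 5 at either age, against 5.07% and 0.0614% of all genes. At an unadjusted p below 0.05 there was 1 in old and 0 in young stems, again without a share of all genes at that threshold. In the authors' deposited table for young stems all 5 had an edgeR adjusted p of at most 0.0072. In the one for old stems their edgeR adjusted p was 0.06 to 0.46, so none passed. By age, 1 of 5 was lower in old outer bark (Potri.006G181900, log2 fold change -2.98 ± 0.94 SE, edgeR adjusted p = 0.0413), against 13.5% of all tested genes. In inner bark 0 of 5 were called, where 14.9% of all tested genes were lower in old stems. At an unadjusted p below 0.05, 5 lay below the young level in the outer layer of old stems and 1 in the inner layer. The share of all tested genes at that threshold is not given here, so these counts have no background. The part of cells with secondary walls in the members' differences was not tested.

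Genes outside the list with the most similar course over the 14 libraries were sought for each type, as the root mean square difference of log2 CPM after centring. This was done for the 16506 genes whose log2 CPM averaged 3 or more. For the CesA1 type the nearest were Potri.004G221700 (0.07), Potri.019G012100 (0.09) and Potri.006G152100 (0.09), where the median gene was at 0.45. For the CesA3 type they were Potri.017G041800 (0.09), Potri.002G247500 (0.11) and Potri.005G187400 (0.12), with a median of 0.47. For the CesA6 type they were Potri.001G100700 (0.13), Potri.009G105700 (0.13) and Potri.012G133400 (0.14), with a median of 0.55. These are the lowest values of all genes searched. Between the single genes of a pair the root mean square difference was 0.36 for the CesA1-type pair, 0.64 and 0.31 for the CesA3-type pairs, and 0.78 and 1.07 for the CesA6-type pairs. The pair values cannot be set against those of the nearest genes, which were measured from the mean course of a type and picked as the lowest. The CesA6-type mean averages over the opposite courses of its members.

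In the tables of layer comparisons that the authors deposited, none of the 10 members had an adjusted p below 0.05. In the authors' deposited table for old stems the lowest edgeR adjusted p of a member was 0.072, for Potri.006G052600, and in the authors' deposited table for young stems it was 0.4, for Potri.013G019800. The authors' deposited tables gave each member the same direction between layers as the group means did, at both ages.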

How the data were processed

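Per the file headers, the count table that the authors deposited holds raw read counts of each gene in 14 libraries, all whole numbers. HTSeq, TopHat, Bowtie, Cufflinks, CASAVA, Trimmomatic, DESeq and edgeR are listed in the submitters' processing notes, with neither versions nor roles. A genome build was not given in the sources used here. In the layer comparisons that the authors deposited, the fold changes are log2 values of inner over outer bark, and the p-values come from DESeq and edgeR, per the file headers. The normalized columns of these deposited tables, taken as a score because their scaling is not stated, were not used. Their raw counts equalled the count table in 100% of values, and 0 columns lacked a sample.

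Of 41335 genes, 27673 passed edgeR's filterByExpr and 13662 were removed. TMM-scaled counts were fitted in edgeR 4.0.16 with R 4.3.3 (quasi-likelihood F test, robust, 4 group means, 10 residual degrees of freedom), with Benjamini-Hochberg adjustment over all tested genes and a threshold of 0.05. The group-mean and blocked fits were first run on simulated data, and the outcome is not given here or used as support. The simulation for the group means drew libraries independently, without a shared stem effect. Outer and inner libraries of the same number correlated in their deviations from the group means (r between 0.60 and 0.82 over 7 numbers, each library best with its own), so the numbers were taken to pair the libraries, and layer results are also given with that number as a block term, leaving 5 residual degrees of freedom. Within-group libraries differed by more than counting noise, so none was treated as a duplicate. CPM are TMM-scaled.

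Pair ratios were log2 ratios of counts with a pseudocount of 0.5. They were tested by exact permutation over stems, and their p-values are unadjusted although an adjustment over the 5 pairs had been planned. All 10 members are named, with the 3 genes nearest to each of the 3 types among genes whose log2 CPM averaged 3 or more. The members and lists were chosen with earlier results of these data known. A further 7 lists of pathway genes and of cork and phloem markers could not be filled, since no table pairs identifiers with names. Alternatives were DESeq2 1.42.0, limma 3.58.1 (voom), other scalings and filters, the block, and each replicate left out. The blocked fits with a stem left out, with another scaling or in DESeq2 were chosen after seeing the data.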

Additional observations from a re-analysis of the deposited data

Results flagged for a closer look

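In 4 members the layer difference itself differed between old and young stems in edgeR's quasi-likelihood fit with the stem number as a block. The old minus young differences of the log2 outer over inner ratio were -0.52 for Potri.016G054900, -0.66 for Potri.006G052600, -0.66 for Potri.013G019800 and -0.79 for Potri.005G027600. Of all genes tested, 10.3% passed in this fit, 6.99% in the same direction. Without young stem 2 or without young stem 4 the number of members fell from 4 to 1. Those fits have fewer libraries for every gene, and their share of all genes is not given here. For the change of the layer difference with age, group means called 0 members and 0% of all genes in edgeR. DESeq2 called 0 members and 37 of all genes. At an unadjusted p below 0.05 in edgeR there were 2 members, without a share of all genes at that threshold. Among the 20 sets of 4 old libraries examined (10 members in each layer), 0 held a library that stood apart by Dixon's test. With 4 values this test finds only extreme outliers, and young groups were not examined. It cannot show that no library stood apart. Libraries of a group were also compared by chi-square per degree of freedom. In old outer bark it was 123 to 150 for pairs with stem 1 and 17.4 to 30.4 for the others. In old inner bark it was 92.6 to 110 against 21.7 to 36.2. In young stems it was 66.6 to 77.3 against 26.1 in outer and 59.3 to 73.0 against 20.5 in inner bark.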

How the results depend on the processing

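The number of members called depended most on the replicate block. With the block it was 3 for the layer in old stems, 8 in young stems and 4 for the interaction, against 1, 0 and 0 from group means. Of all tested genes the block called 39.2%, 33.3% and 10.3%, against 10.4%, 0.387% and 0% from group means. With the block the members called were 3, 7 and 4 under RLE scaling, 3, 8 and 4 under upper-quartile scaling, and 4, 7 and 4 in DESeq2. Over all genes, the block under RLE scaling called 9622 for the layer in young stems and 2887 for the interaction. The main blocked fit called 9219 and 2840. The other blocked counts over all genes under these settings are not given here. Without the block, DESeq2 called 1 member for the layer in young stems and 5 for age in outer bark, and the fit of only the groups compared called 3 for age in inner bark. Other scalings and filters left these counts within 1.5 times. The block as a random effect gave 3 and 5 for age in outer and inner bark. Leaving out replicates with group means gave 1 for the layer in old stems in every case, 0 to 2 in young stems, 0 to 5 for age in outer bark, 4 to 7 in inner bark and 0 for the interaction. Over all genes the same fits called 1554 to 5216, 0 to 1504, 2715 to 10463, 4554 to 13122 and 0 to 5. With the block, leaving out a stem gave 2 to 5, 3 to 8 and 1 to 4 members for the layer contrasts and the interaction. The counts over all genes in those blocked fits are not given here. None of the members' fold changes called by group means changed sign under any alternative run. Some that were not called did, among them Potri.016G054900 for the layer in young stems (-0.15 to 0.19), Potri.001G266400 for the layer in old stems (-0.10 to 0.19), and Potri.018G029400 (-0.10 to 0.11) and Potri.007G076500 (-0.24 to 0.16) for age in inner bark. The young layer difference of Potri.005G087500, called only with the block, was 0.01 from group means without young outer replicate 1. The cause of these differences was not tested. With fewer stems the pair ratios cannot reach p below 0.05 for age, so a lost call there follows from the number of stems. Their old minus young values ranged from -0.74 to -0.58 for Potri.018G029400 over Potri.006G251900, from 1.05 to 1.26 for Potri.009G060800 over Potri.001G266400, from -0.52 to -0.39 for Potri.016G054900 over Potri.006G052600, from -1.74 to -1.12 for Potri.013G019800 over Potri.005G027600, and from 1.54 to 2.30 for Potri.007G076500 over Potri.005G087500.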

Other observations

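The CesA6-type genes Potri.005G027600 and Potri.005G087500 were set against each other after their values had been seen, so no test is given. The ratio of their counts was 3.00 to 7.45 in the 8 old libraries. In young stem 1 it was 1.72 in outer and 0.941 in inner bark. In young stems 2 and 4 it was between 0.0767 and 0.264.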
